A study of Mus musculus with 6 samples.

Results

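Spib and 9 other genes of the ETS family of transcription factors were followed in fibroblasts and stromal cells of the mouse lymph node (LN): Spib, Spi1, Ets1, Ets2, Elk3, Fli1, Erg, Etv1, Etv4 and Etv5. Spib was selected on its measured level with and without an agonistic antibody to the lymphotoxin β receptor (LTβR), where its response was large, so its values are given as a description without a test. The others were taken as relatives of Spib. All 10 had a row that the array annotation assigns to 1 gene, of 19938 genes with such a row. Etv1 and Etv5 had 2 rows each and the brightest was used. Of a wider list of 26 ETS family genes, 25 had a row; Fev had none here.

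RNA had been hybridised to 6 single-colour Affymetrix arrays. The first held cultured fibroblasts (MEF) from C57BL/6JJcl mouse embryos of embryonic days 11.5 to 13.5. Another held stroma sorted from enzyme-digested LN of adult C57BL/6JJcl mice as CD45-CD31-podoplanin+VCAM-1+ cells, without culture. The other 4 held a pair of established stromal lines from LN of BALB/cA mice, BLS4 and BLS12, each unstimulated and after 2 days with 1 µg/ml of a goat polyclonal agonistic antibody to LTβR; the labels name no control antibody. MEF and LN stroma thus share a strain that the lines do not, and strain, culture and tissue cannot be told apart between them. No array was repeated, and nothing in the labels says how many animals were pooled. The p-values below come from the 4 line arrays. Their spread is the disagreement between the antibody differences of the 2 lines, drawn toward a value shared by all genes, and it may be technical. It is not a spread between repeat cultures. In the line difference, the unstimulated and the antibody-treated array of a line stand in for repeats. Values are log2 of the deposited intensity. Array medians lay between 5.69 and 5.82, and since no detection call was available, a level below its array's median is treated as low and its fold as approximate. In a bulk sample, fewer cells of a type and less RNA per cell cannot be told apart.

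The labelled cell types were checked against marker lists. LN stroma had high levels of Ccl19 (12.49) and Cxcl13 (12.82), the chemokines of T cell zone and follicular stroma, of Pdgfra (12.26) and of Vcam1 (11.90). In unstimulated lines Pdgfra stood at 11.60 and 11.12, and Vcam1 at 9.83 and 10.93, but Ccl19 and Cxcl13 were at most 6.04. Of 11 listed genes of LN fibroblastic stroma, 11 were at or above the median in LN stroma, against 9 in MEF and 9 or 10 in the line arrays. Not all were highest in LN stroma. Pdpn, which encodes the podoplanin used for sorting, was lowest there, at 10.20, against 10.42 in MEF and up to 11.68 in the lines. Thy1 was at 7.54 in LN stroma, 10.98 in MEF and 6.67 to 8.25 in the lines. Ptprc, which encodes CD45, was below the median on all 6 arrays, and Pecam1, which encodes CD31, was above it on 1, LN stroma (6.44). Of 12 endothelial markers, 10 were at or above the median in LN stroma, against 5 in MEF and 3 or 5 in the line arrays. Their summed intensity on the log2 scale was 9.98 in LN stroma, 10.01 in MEF and 9.12 to 9.21 in the lines.

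ETS proteins share a DNA-binding domain that recognises a GGAA core, and differ in their partners and in the signals that reach them. Spi-B, the product of Spib, and PU.1, the product of Spi1, form a subfamily known from lymphoid and myeloid cells. Spi-B is also known from intestinal M cells, where the TNF family cytokine RANKL induces it through non-canonical NF-κB, the pathway that LTβR likewise uses in LN stroma. Ets1 and Ets2 are targets of Ras and ERK signalling, Elk3 binds serum response elements together with SRF, Fli1 and Erg are known from endothelial and blood cells, and Etv1, Etv4 and Etv5 form the PEA3 group downstream of FGF and ERK.

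Promoter sequence shows which letters stand before Spib and before genes whose levels went with it. RefSeq promoter sequences (GRCm38.p6, 250 bases before the start) were matched by symbol for 6 of the 10 genes. Shown are Spib at chr7:44532088-44532321 (minus strand), Nfkbie at chr17:45555450-45555699 (plus strand) and Birc2 at chr9:7837132-7837307 (minus strand), which were among the genes closest to Spib in level, and Elk3 at chr10:93311160-93311409 (minus strand), an ETS gene without a called antibody difference. Each is read 5′ to 3′ on the gene's strand, and bases inside the gene's longest RefSeq model were left off. Capitals mark the NF-κB consensus motif and GGAA, searched on both strands (TTCC is GGAA on the other strand); where they overlap, both are within 1 run of capitals.
Spib: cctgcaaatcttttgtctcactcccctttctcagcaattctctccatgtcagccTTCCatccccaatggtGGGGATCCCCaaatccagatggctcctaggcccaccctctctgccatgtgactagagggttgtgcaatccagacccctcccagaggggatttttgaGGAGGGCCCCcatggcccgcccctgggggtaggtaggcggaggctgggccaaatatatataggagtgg
Nfkbie: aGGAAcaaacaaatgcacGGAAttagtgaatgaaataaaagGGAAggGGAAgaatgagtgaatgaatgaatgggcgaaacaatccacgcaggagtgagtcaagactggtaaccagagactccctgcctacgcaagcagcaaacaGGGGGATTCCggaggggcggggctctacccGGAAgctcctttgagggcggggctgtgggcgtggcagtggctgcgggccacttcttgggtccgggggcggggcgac
Birc2: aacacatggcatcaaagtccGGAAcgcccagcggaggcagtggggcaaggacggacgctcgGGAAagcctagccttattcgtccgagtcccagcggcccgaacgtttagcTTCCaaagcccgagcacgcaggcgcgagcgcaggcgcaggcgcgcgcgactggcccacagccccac
Elk3: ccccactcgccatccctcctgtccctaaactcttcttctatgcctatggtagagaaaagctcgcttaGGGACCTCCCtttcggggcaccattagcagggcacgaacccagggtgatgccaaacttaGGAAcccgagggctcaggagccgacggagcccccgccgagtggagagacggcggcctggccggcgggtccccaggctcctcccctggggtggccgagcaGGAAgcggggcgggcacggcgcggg

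The Spib window held GGGGATCCCC, which matches the NF-κB consensus on both strands, and GGAGGGCCCC, which matches it on the other strand. The Nfkbie window held GGGGGATTCC, whose last letters are also a TTCC, and the Elk3 window held GGGACCTCCC. In the windows of Birc2 and of Dram1, the third gene close to Spib with a promoter in the table, no match to this motif was found. Of all 32851 promoters of 250 bases, 7.25% held at least 1 match to the NF-κB consensus and 93.4% at least 1 GGAA. In the windows searched for the other members, Ets2, Erg, Etv1 and Etv5 had no match to the NF-κB consensus. A match is a description of the letters and not a bound site. Elk3 had no called antibody difference, but it stood higher with antibody by 0.22 in BLS4 and 0.60 in BLS12. The part of these motifs in any antibody difference was not tested.

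Spib was low in cultured cells without the antibody and high with it. Its level was 4.69 in MEF, 5.10 in unstimulated BLS4 and 5.75 in unstimulated BLS12. With the antibody it was 8.66 in BLS4 and 9.91 in BLS12, and in freshly sorted LN stroma, which received no antibody, it was 8.95. All 3 low levels lay near or below the array median. The antibody difference was 3.55 log2 units (11.7-fold) in BLS4 and 4.16 (17.9-fold) in BLS12, with a mean of 3.86 ± 0.43 (SD, n = 2 lines). It ranked 1 of the 11988 genes that passed the intensity filter of the line comparison, a place that the choice of this gene fixes. LN stroma lay 4.26 above MEF, 3.85 above unstimulated BLS4 and 3.20 above unstimulated BLS12. Against antibody-treated cells LN stroma was 0.29 above BLS4 and 0.96 below BLS12. With 1 array each, these last distances have no check against spread.

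**Figure D1:**
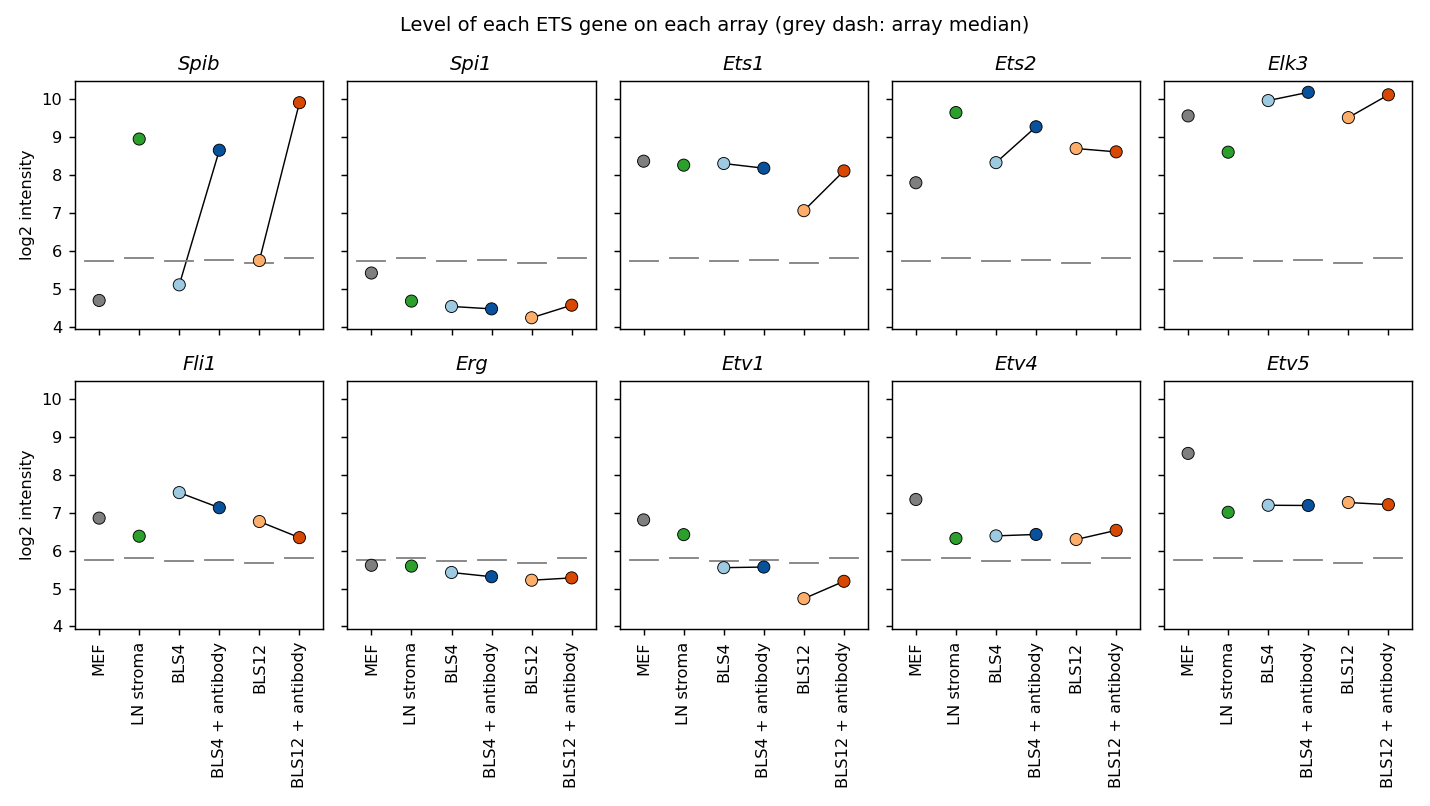
Level (log2 intensity) of each of the 10 ETS genes on the 6 arrays, with lines joining the unstimulated and antibody-treated array of 1 cell line and grey dashes at each array's median. Spib is at 8.66 to 9.91 on the antibody-treated and LN stroma arrays and at 4.69 to 5.75 on the others; levels of different genes are from different probes and are not compared with each other.

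Markers of cell types known to express Spib were set beside the LN stroma level. Of 15 leukocyte markers with a row, 3 were at or above the median in LN stroma, against 2 or 3 in the line arrays and 7 in MEF, and their summed intensity on the log2 scale was 9.50 in LN stroma, 9.31 to 10.32 in the lines and 11.35 in MEF. The B cell genes Cd79a (4.78), Cd79b (5.50) and Ms4a1 (4.88) lay below the median in LN stroma. Of 7 markers of plasmacytoid dendritic cells, which use Spi-B, 4 were at or above the median in LN stroma, as in each of the 4 line arrays, and 3 in MEF. Their summed intensity on the log2 scale was 10.75 in LN stroma, 9.88 to 10.59 in the lines and 9.92 in MEF. Irf8 was at 8.85 in LN stroma, against 5.88 to 6.39 on the other arrays, and Irf7 at 7.89, against 5.25 to 6.83. The defining marker Siglech was at 5.35, against 4.68 to 5.04, and Ccr9 at 3.73, against 3.66 to 3.79, both below the median. The part of such cells in the Spib level was not tested.

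Spi1, the closest relative, showed no such pattern. Spi1 was below the median on all 6 arrays: 5.42 in MEF, 4.68 in LN stroma, 4.53 and 4.47 in BLS4 without and with antibody, and 4.24 and 4.57 in BLS12. MEF was the highest, by 0.88 and 1.18 over the unstimulated lines. Macrophage genes stood higher in MEF as well. Of the 15 leukocyte markers 8 were kept, and 7 were at least 2-fold above both unstimulated lines there. This size was chosen after seeing the data, and 3.85% of the 12676 genes kept reached it. Itgam, Csf1r, Tyrobp, Fcer1g and Laptm5 entered through MEF alone, so the filter itself favoured them. Among the 7 were Lyz2 (10.36 in MEF), Fcer1g (7.12) and Csf1r (7.06). The part of these markers in the Spi1 level was not tested. Spic, the remaining gene of that subfamily and known from red pulp macrophages, was at 6.30 in LN stroma and at 3.52 to 3.93 on the other 5 arrays. Its LN level was 6.86-fold that of MEF and 6.42- and 6.71-fold those of the unstimulated lines.

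None of the ETS genes tested besides Spib had an antibody difference that passed. A model with a term for the line and a term for the antibody, fitted to the 4 line arrays (limma, two-sided, Benjamini-Hochberg over 11988 genes, threshold 0.05) called 33 genes, 0.275% of those tested. Genes entered where at least 2 of the 4 arrays reached their median, which kept 7 members and 10 of the 15 other ETS genes. Spi1, Erg and Etv1 were too low to enter, and Spib entered through the antibody-treated arrays, in which it is high. Of the 6 members tested besides Spib 0 passed, and 2 had an unadjusted p under 0.05 in limma, where 11.6% of all genes did. None of the 10 other ETS genes passed either. With 0.275% of all genes called, 0 among so few genes is near the background. The 16 tested ETS genes without Spib had a median difference of 0.11, between -0.41 and 0.46, beside -0.02 over all 11988 genes.

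Fli1, which regulates endothelial and blood cell genes, had nearly the same antibody difference in both lines. Its level went from 7.53 to 7.13 in BLS4 and from 6.77 to 6.34 in BLS12, so it was lower with antibody in 2 of 2 lines. The difference was -0.41 log2 units (95% interval -0.75 to -0.07, limma adjusted p = 0.357). Elk3, the SRF partner, stood higher with antibody in both lines, from 9.96 to 10.18 in BLS4 and from 9.51 to 10.12 in BLS12. Its difference was 0.41 (95% interval 0.01 to 0.81, limma adjusted p = 0.416). Neither passed the threshold over all genes.

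The antibody differences of Ets1 and Ets2 lay in 1 line each, and not in the same one. Ets1 was at 8.30 and 8.18 in BLS4 without and with antibody, and at 7.06 and 8.11 in BLS12, so unstimulated BLS12 alone was low. Ets2 was at 8.33 and 9.27 in BLS4 and at 8.70 and 8.61 in BLS12, so antibody-treated BLS4 alone was high. The antibody difference of Ets1 was -0.12 in BLS4 and 1.05 in BLS12, and that of Ets2 was 0.95 and -0.09. Averaged over the lines, they were 0.46 (95% interval -0.24 to 1.17, limma adjusted p = 0.595) and 0.43 (95% interval -0.21 to 1.07, limma adjusted p = 0.591). With 1 array per line and condition, the difference between the lines' responses could not be tested.

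Antibody differences of the PEA3 group were small. Etv5 was at 7.20 and 7.19 in BLS4 and at 7.27 and 7.21 in BLS12, a difference of -0.03 (95% interval -0.37 to 0.31, limma adjusted p = 0.956). Etv4 was at 6.39 and 6.43 in BLS4 and at 6.29 and 6.53 in BLS12, a difference of 0.14 (95% interval -0.22 to 0.50, limma adjusted p = 0.764). Both intervals leave out a 2-fold change. The 2 members too low to be tested beside Spi1 were Etv1, at 5.55 and 5.57 in BLS4 and 4.73 and 5.19 in BLS12, and Erg, at 5.42 and 5.31 in BLS4 and 5.22 and 5.28 in BLS12.

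**Figure D2:**
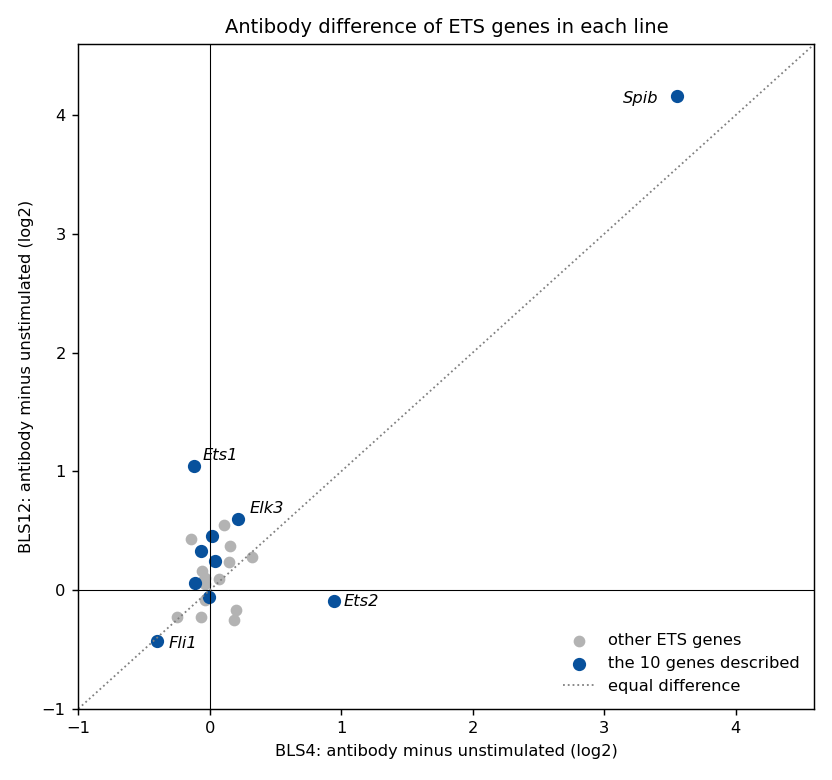
Antibody-treated minus unstimulated level (log2) of the 25 ETS genes in BLS4 (horizontal) and BLS12 (vertical), 1 pair of arrays per line; blue points are the 10 genes described, grey points other ETS genes, and the dotted line marks equal differences. Spib lies at 3.55 and 4.16, Ets2 is raised along the BLS4 axis alone (0.95 and -0.09) and Ets1 along the BLS12 axis alone (-0.12 and 1.05).

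Between the lines, Fli1 was higher in BLS4. The same model called 2835 genes, 23.6% of those tested, and 1 of the 6 members tested besides Spib, so their share is not above the background. Fli1 had a BLS12 minus BLS4 difference of -0.78 (SE 0.137, limma adjusted p = 0.0153), with -0.76 in unstimulated and -0.79 in antibody-treated cells. Without the antibody term its limma adjusted p was 0.089. Spib, described without a test since these arrays served to choose it, stood higher in BLS12 than in BLS4 by 0.64 in unstimulated cells, where both levels are low, and by 1.25 in antibody-treated cells. Of endothelial markers, which Fli1 is known with, 5 of 12 were tested; Flt1 was higher in BLS4 and Tek in BLS12.

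Among the other ETS genes 2 of 10 passed, both higher in BLS4. As 23.6% of all genes passed, this share too is not above the background. Elk1, the founding ternary complex factor, was at 8.58 and 8.51 in BLS4 without and with antibody and at 7.65 and 7.42 in BLS12, a difference of -1.01 (SE 0.141, limma adjusted p = 0.00802). Elf4 was at 7.98 and 8.17 in BLS4 and at 7.30 and 7.04 in BLS12, a difference of -0.91 (SE 0.165, limma adjusted p = 0.0166). The dimmer Elf4 row ran the other way, at 5.58 and 5.78 in BLS4 and 5.77 and 5.91 in BLS12, and with both rows averaged the difference was -0.37 (limma adjusted p = 0.122). Ets1 had a difference of -0.66 (95% interval -1.36 to 0.05, limma adjusted p = 0.151), made up of -1.24 in unstimulated and -0.07 in antibody-treated cells. Ets2, Elk3, Etv4 and Etv5 lay between -0.26 and 0.05 and did not pass.

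**Figure D3:**
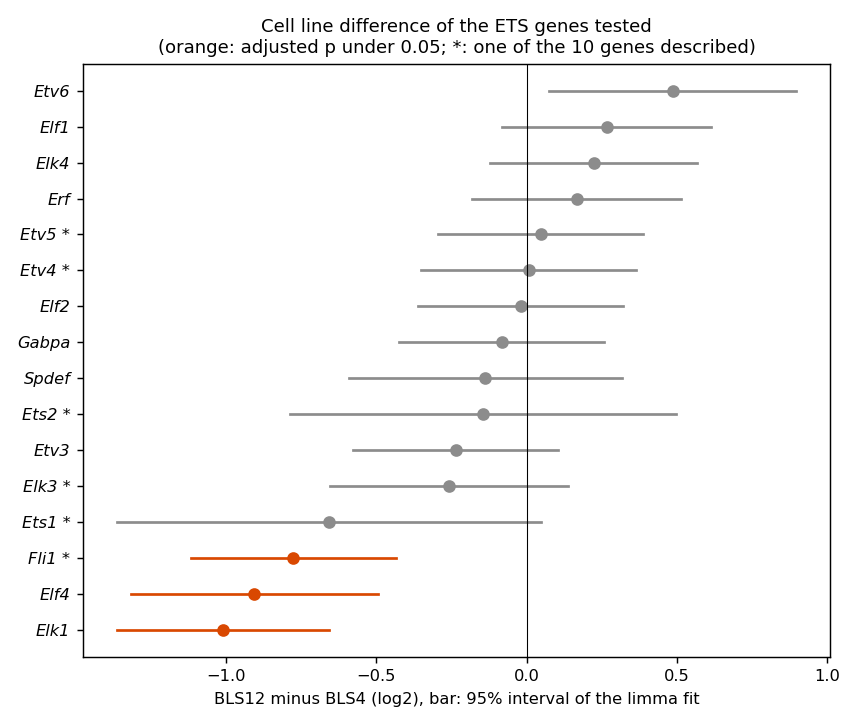
BLS12 minus BLS4 difference (log2) of 16 ETS genes tested (Spib is left out), with the 95% interval of the limma fit over the 4 line arrays; orange marks an adjusted p under 0.05 and a star one of the 10 genes described. Fli1 (-0.78), Elf4 (-0.91) and Elk1 (-1.01) lie to the left of 0 and passed the threshold.

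MEF had the highest levels of all 3 PEA3 genes, but also of Spi1, Ets1 and Erg. Ets1 was at 8.37 in MEF and at 7.06 to 8.30 elsewhere, and Erg at 5.61 and at 5.22 to 5.59, below the median on every array. Etv5 was at 8.56 in MEF and at 7.01 to 7.27 on the other 5 arrays. Its dimmer row gave 7.99 in MEF and 6.37 to 6.75 elsewhere, the same order of MEF against the rest. Etv1 was at 6.81 in MEF, 6.42 in LN stroma and 4.73 to 5.57 in the lines, so that LN stroma lay nearer to MEF. Its dimmer row gave 6.13 in MEF, 5.82 in LN stroma and 4.92 to 5.40 in the lines. Etv4 was at 7.35 in MEF and at 6.29 to 6.53 on the other 5 arrays. MEF exceeded the unstimulated lines BLS4 and BLS12 by 1.37 and 1.30 in Etv5, by 1.26 and 2.08 in Etv1, and by 0.96 and 1.06 in Etv4. These comparisons rest on 1 MEF array and have no test. At least 4-fold against both lines, 0 of the 8 members kept differed, with 1.44% of 12676 genes past that size. At least 2-fold, 2 of the 8 members kept, Etv1 and Etv5, were higher in MEF, where 3.85% of genes were. Etv1 entered this comparison through its MEF level alone, so its place among these is not free of the filter.

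Genes of the FGF and ERK pathway, which acts upstream of the PEA3 group, did not all follow MEF. Of 11 such genes 1, the ERK phosphatase Dusp6, was at least 2-fold higher in MEF than in both unstimulated lines, where 3.85% of all genes were. Dusp6 was at 9.63 in MEF, 9.76 in LN stroma, 7.45 in BLS4 and 8.46 in BLS12. Spry4, a feedback inhibitor of the same pathway, was at 7.71 in MEF and 7.55 in LN stroma, and at 6.26 in BLS4 and 7.17 in BLS12. Dusp4, another ERK phosphatase, was at 8.59 in MEF, 6.39 in LN stroma, 8.01 in BLS4 and 7.36 in BLS12. In Dusp6 and Spry4 LN stroma thus lay close to MEF, and in Dusp4 it was the lowest array. Il17rd was at 7.57 in MEF, 7.36 in LN stroma, 6.48 in unstimulated BLS4 and 6.66 in unstimulated BLS12. Spry1, Spry2 and Fgfr2 also stood higher in MEF than in both unstimulated lines. Spred1, Spred2, Fgfr1 and Egfr stood higher in MEF than in 1 unstimulated line and lower than in the other.

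Apart from Spib, no member kept was 4-fold apart between LN stroma and the cultured cells without antibody. Of the 7 members kept besides Spib, 0 were at least 4-fold higher in LN stroma than in both unstimulated lines, where 3.52% of 12827 genes were, and 0 were so against MEF, where 4.64% of 12613 genes were. Spib exceeded that size in both, by the distances given above; these are a description, since the unstimulated arrays served to choose it and it entered the comparison with MEF through its LN level alone. Among other ETS genes Spic exceeded it, and it too entered through LN stroma, the 1 array on which it reached the median. The comparisons of MEF and of LN stroma with the lines share the unstimulated line arrays. Ets2 was at 9.65 in LN stroma, above antibody-treated BLS4 (9.27), the remaining line arrays (8.33 to 8.70) and MEF (7.80), and lay 1.85 above MEF. Elk3 was lowest in LN stroma, at 8.60, against 9.56 in MEF and 9.51 to 10.18 in the lines.

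Immediate early genes were high on the same array. Of 9 SRF and serum response genes, through which Elk factors are known to act, 7 were at least 4-fold higher in LN stroma than in both unstimulated lines and than in MEF. Over all genes, 3.52% were so against the lines and 4.64% against MEF. Fos was at 12.48 in LN stroma and at 6.46 to 7.27 on the other 5 arrays, and Egr1 at 11.58 against 6.80 to 7.83. Srf itself was at 8.01 in LN stroma and 8.06 to 8.57 elsewhere. The part of enzyme digestion and sorting, which LN stroma alone went through as fresh tissue, in the Ets2 and Elk3 levels was not tested.

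Genes of the receptor and of NF-κB signalling mostly had positive antibody differences, 8 of the 9 tested, where 5581 of all 11988 genes were positive. Of 10 such genes with a row, Nfkbie and Nfkbia, both inhibitors of NF-κB, rose with antibody, with 0 lower, where 0.275% of all genes were called. The median antibody difference of the 9 was 0.97, beside -0.02 over all genes. Nfkb2, the p100 subunit of the non-canonical pathway, was at 8.03 and 10.42 in BLS4 without and with antibody and at 9.27 and 10.81 in BLS12, and its partner Relb at 7.43 and 8.30 and at 7.60 and 8.92. Both stood higher with antibody in both lines without passing, with a mean difference of 1.96 for the former (limma adjusted p = 0.0527) and 1.09 for the latter (limma adjusted p = 0.0918). Map3k14, the kinase that starts the non-canonical pathway, was at 6.87 and 8.10 in BLS4 without and with antibody, and at 7.46 and 8.16 in BLS12. Its difference was 0.97 (SE 0.177, limma adjusted p = 0.125). Traf2, an adaptor of the receptor, had a difference of 0.64 (limma adjusted p = 0.189) and Rela, a canonical subunit, one of 0.40 (limma adjusted p = 0.366). Tnfrsf11a, the receptor for RANKL, lay below the median on all arrays except MEF (6.10).

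Genes known with Spib in M cells were mostly low or did not pass. Of 12 such genes 6 were tested and 0 passed in limma, 3 of them at an unadjusted p under 0.05, where 11.6% of all genes were. Their median antibody difference was 0.24, beside -0.02 over all genes. Ccl9, a chemokine of the M cell region, was at 8.48 and 10.11 in BLS4 without and with antibody and at 5.77 and 8.67 in BLS12. Ccl9 was the 1 gene of the list at least 2-fold higher in both lines, a size that 0.434% of genes reached. Tnfaip2, which is needed for membrane tubes between cells, was at 9.06 and 9.80 in BLS4 and at 6.45 and 7.92 in BLS12, a difference of 0.74 in BLS4 and 1.47 in BLS12 (limma adjusted p = 0.129). Unlike Spib, both were higher in BLS4 than in BLS12, Ccl9 by a BLS12 minus BLS4 difference of -2.07 (limma adjusted p = 0.00921) and Tnfaip2 by one of -2.24 (limma adjusted p = 0.00259). Gp2, a bacterial receptor of mature M cells, was at 6.65 in LN stroma and at 3.89 to 4.40 on the other 5 arrays, 6.02-fold MEF, with both antibody-treated lines below the median.

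The genes with levels closest to Spib were Birc2, Nfkbie, Angptl4, Dram1 and Cxcl16. Likeness was Pearson's r of log2 intensity over the 6 arrays, among 1109 genes with an SD of at least 1, and is given as a description. It was 0.973 for Birc2, an inhibitor of apoptosis and E3 ligase of the non-canonical pathway, and 0.970 for Nfkbie. Angptl4, a secreted lipase inhibitor, had 0.958, and Dram1, a lysosomal regulator of autophagy, and the chemokine Cxcl16 had 0.957 each. Birc2 followed the same order of arrays as Spib, from MEF (6.50) over unstimulated BLS4 (7.17), unstimulated BLS12 (7.80), antibody-treated BLS4 (8.76) and LN stroma (9.45) to antibody-treated BLS12 (10.32). Without LN stroma 2 of the 5, Nfkbie and Cxcl16, were again among the closest 5, and without either line 2 were. Of the ETS genes Elf2 (0.845), Elk4 (0.720) and Ets2 (0.713) had the highest r with Spib, over ranges far smaller than that of Spib, and Fli1 (-0.611) and Etv5 (-0.588) the lowest.

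**Figure D4:**
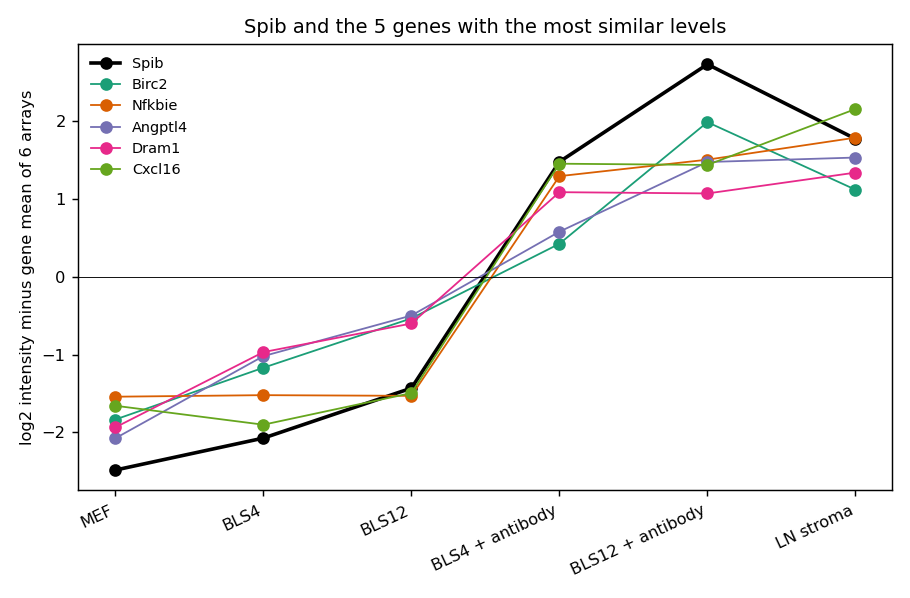
Level of Spib and of the 5 genes closest to it, as log2 intensity minus each gene's mean over the 6 arrays, with arrays ordered by hand as MEF, unstimulated lines, antibody-treated lines and LN stroma; lines join the points of 1 gene. In all 6 genes the 3 arrays on the left lie below the gene's mean and the 3 on the right above it.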

How the data were processed

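The 6 arrays carried RNA from cells described in the labels. The authors deposited 1 linear intensity per transcript cluster, from Affymetrix Expression Console 1.1 per the submitters' processing notes. How probes were summarised and scaled, and the build, are not given in the sources used here. No pseudocount was needed before log2 (lowest intensity 3.55). Of 35557 rows, 21789 name 1 gene, 1621 several and 12147 none in the platform annotation; those with 1 gene were used, the brightest (mean of 6 arrays) per gene. Genes entered the line model (limma 3.58.1, R 4.3.3, lmFit and eBayes, 1 residual degree of freedom) where at least 2 of 4 arrays reached the array median. Genes entered comparisons of MEF or LN stroma where at least 1 array compared did. Cell line was the block in the antibody fit, since both arrays of a line come from 1 line (correlation of deviations 0.848). The model was tested on simulated data. Members and lists were chosen with earlier results of these data known. Named genes were the members, listed genes that passed a test or a size, and the 5 highest r with Spib (SD at least 1); other list genes were named after their values were seen. Alternatives were no filter, centring, quantile normalization, averaged rows, no block and leaving out a line. Array number limits precision.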

Additional observations from a re-analysis of the deposited data

Results flagged for a closer look

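The antibody differences of 4 genes had opposite signs in BLS4 and BLS12, each line with 1 pair of arrays, and this was not tested. The BLS12 response minus the BLS4 response was 1.17 log2 units for Ets1 and -1.03 for Ets2. It was 0.40 for Spi1 and 0.17 for Erg, both of which lay below the median on all 6 arrays.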

How the results depend on the processing

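Of 108 alternative values for single genes, 104 kept their direction and their side of the threshold or lay within 1 SD. Values from 1 line or 1 condition alone lie within 1 SD of their mean by construction, so counting them is no check. Among these, the antibody difference went from 0.46 to -0.12 for Ets1 without BLS12, and from 0.43 to -0.09 for Ets2 without BLS4. In unstimulated cells alone the line difference went from -0.14 to 0.37 for Ets2 and from 0.01 to -0.10 for Etv4. After quantile normalization the line differences of Etv4 and Etv5 changed sign, to -0.01 and 0.00, from values near 0. Without the antibody term the Fli1 line difference no longer passed, nor did that of Elf4 with rows averaged. The antibody calls, 33 genes, were 54 with no filter, 98 after centring (55.1% higher, against 72.7%), 6 after quantile normalization and 0 with no replicate block (241 at an unadjusted p under 0.05 in limma); the cause was not tested. The array median with antibody was 0.02 higher in BLS4 and 0.13 in BLS12. Line calls fell to 1428 without the antibody term. Antibody differences of at least 2-fold were 188 to 447 with 1 line left out, against 80 in both. Counts past 4-fold were 385 to 463 against 183 for MEF and 762 to 981 against 524 for LN stroma with 1 line left out. At 2-fold, added after seeing the data, they were 738 for MEF and 1447 for LN stroma against the lines and 2815 for LN stroma against MEF (45.9% higher, against 61.3% at 4-fold). Of the 5 genes closest to Spib, 5 were kept after either scaling and 2 without BLS4, without BLS12 or without LN stroma. A fit with 1 line left out has no residual degree of freedom, so no calls were counted there. Probes below the array median limit the folds of Spib, Spic and Spi1.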
